A study of Mus musculus with 7 samples.

Results

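Genes known to be switched on by interferons were followed in astrocytes from CETP transgenic and wild-type mouse brains. They were Ly6e, Samd9l, Irf7, Igtp, Usp18, Ifi44, Rtp4, Psmb8 and Bst2, 9 genes of 22195 features measured. Each was found by its symbol in the authors' deposited fold change table, case ignored, and each had 1 probe set there, whose log2 value was read on all 7 arrays. The symbols are available here only for probe sets in that table, which the authors limited to entries at least 1.4-fold apart in the 2 CETP diets, and the 9 genes were picked with their differences from wild type already known. The differences among the 3 groups are therefore given as a description, and no test of them supports the choice.

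The samples were 7 mice, with 1 Affymetrix array for each. CETP transgenic mice of the strain B6.CBA-Tg(CETP)5203Tall/J on a diet with 1% cholesterol gave 3 arrays (replicates 1, 2 and 3), and per the labels that diet was fed for 2 months, between the ages of 2 and 4 months. CETP transgenic mice whose own labels give a standard diet gave 2 arrays (replicates 4 and 5), although the labels' growth protocol describes the cholesterol diet for transgenic animals in general. Wild-type mice on a standard diet gave 2 arrays (replicates 2 and 3), and their strain is not given in the labels. CETP, the human cholesteryl ester transfer protein, is a plasma protein that mice lack, and the series' design text states that dietary cholesterol induces it in these animals. The transgene's own level was not analysed here. All cells were isolated from whole brain on magnetic ACSA-2 beads as astrocytes, with a purity above 70% by flow cytometry for GFAP, so cells of other types can be present. Per the labels every array came from a different animal, and so few arrays leave each value imprecise. The astrocyte markers are checked further down.

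Interferons are secreted warning proteins of antiviral defence. Type I interferons bind a receptor that activates JAK kinases, and the transcription factor complex formed downstream, which contains IRF9, binds the interferon-stimulated response element in the promoters of target genes. Interferon gamma uses another receptor, and its signal reaches genes through the gamma-activated site. In the brain, astrocytes, microglia and endothelial cells all respond to interferons, and a low tonic level of the pathway is kept without infection.

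Both DNA elements were looked for in the promoters, because they are the shared feature for which these genes are known. RefSeq promoter sequences (GRCm38.p6) were at hand for 6 of the 9 genes, Samd9l, Irf7, Igtp, Ifi44, Psmb8 and Bst2, and the 250 bases upstream of the start were searched on both strands. The response element was searched as a pair of GAAA repeats with 2 or 3 bases between them, and the gamma-activated site as TTCNNNGAA, which reads the same on both strands. Matches may overlap. Either spacing of the response element was found upstream of 4 of the 6, Igtp, Ifi44, Psmb8 and Bst2, against 5.20% of all 32851 promoters in the table. TTCNNNGAA was found upstream of 3, Igtp, Psmb8 and Bst2, against 7.02% of all promoters. For Samd9l and Irf7 no match was present in the window. The Irf7 start used lies inside the gene's own span, on the minus strand. Its window begins at position 141266425, while the gene extends to 141266499. The missing match for Irf7 therefore holds for this start only, and a window from the gene's outer end was not searched. The 150 bases just upstream of the start are printed below for the 4 genes with a match, 5′ to 3′ on the gene's strand, with matches in capitals.
Igtp (chr11:58199406-58199555, plus strand): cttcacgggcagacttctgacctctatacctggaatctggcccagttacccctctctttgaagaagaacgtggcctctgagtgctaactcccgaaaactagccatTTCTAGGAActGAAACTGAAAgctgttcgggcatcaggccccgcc
Bst2 (chr8:71537473-71537622, minus strand): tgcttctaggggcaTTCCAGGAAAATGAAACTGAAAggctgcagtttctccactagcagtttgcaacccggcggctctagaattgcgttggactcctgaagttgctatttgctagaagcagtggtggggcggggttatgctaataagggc
Ifi44 (chr3:151749911-151750060, minus strand): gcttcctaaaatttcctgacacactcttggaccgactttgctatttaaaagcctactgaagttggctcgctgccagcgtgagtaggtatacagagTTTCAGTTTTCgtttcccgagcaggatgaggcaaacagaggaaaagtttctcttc
Psmb8 (chr17:34198045-34198194, plus strand): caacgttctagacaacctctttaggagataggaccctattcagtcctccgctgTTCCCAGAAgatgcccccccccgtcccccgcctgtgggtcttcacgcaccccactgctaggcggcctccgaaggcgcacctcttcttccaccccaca
In Igtp a gamma-activated site match and GAAACTGAAA stand 2 bases apart, and Bst2 holds overlapping matches of both elements. The Psmb8 response element match lies farther upstream than the printed bases. These are matches of letters, and no binding was measured.

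The deposited values are log2 values made by the authors, and array medians over the 22195 features lay between 7.51 and 7.59. Pairwise correlations between arrays across features ran from 0.977 to 0.992. Each array also carried 5222 negative control entries, whose medians were 7.48 to 7.69. A value no higher than that median cannot be told from background, and differences that start from such a value have an uncertain size. Of the 63 values of the 9 genes, 22 were at or below the median of their array and 30 were at most 0.5 above it. Ly6e, Samd9l and Rtp4 were more than 1 above it on every array, while Irf7 was below it on all 7. The negative controls spread widely, so a value above their median can still lie within their range. Samd9l exceeded 75.7% to 91.6% of them over the 7 arrays, Rtp4 77.6% to 89.5% and Bst2 50.6% to 86.1%. On their highest arrays Psmb8, Usp18 and Igtp exceeded 68.3%, 68.0% and 69.0% of them, and Ifi44 57.5%. No feature passed an adjusted p of 0.05 (limma) in any of the comparisons between the 3 groups, so the share called over all features was 0% each time. At an unadjusted p under 0.05, limma had 747 features higher and 1179 lower for the cholesterol diet against wild type, 534 and 641 for the standard-diet label against wild type, and 303 and 373 between the CETP diets.

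Ly6e encodes a small membrane protein anchored by a lipid tail, induced by interferon and known to restrict the entry of coronaviruses into cells. Its log2 values were 13.64, 13.61 and 13.50 on the CETP cholesterol-diet arrays, 14.58 and 14.27 on the CETP standard-diet arrays, and 12.98 and 12.67 on the wild-type arrays. The 3 groups did not overlap at any step, with the standard-diet label highest, the cholesterol diet between and wild type lowest. This gene alone among the 9 exceeded at least 96.3% of the negative controls on every array. Cholesterol-diet mice differed from wild type by 0.76 ± 0.21 (SE) on the log2 scale, and mice with the standard-diet label by 1.60 ± 0.23. These correspond to 1.69-fold and 3.02-fold levels.

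Samd9l, whose protein blocks translation and the replication of poxviruses, had the same order. It measured 9.92, 10.22 and 10.28 on the cholesterol diet, 10.83 and 11.08 on the standard-diet label, and 9.66 and 9.38 in wild type. Again no array of one group reached into the next. The differences from wild type were 0.62 ± 0.21 on the cholesterol diet and 1.44 ± 0.24 on the standard-diet label. Among animals whose label number begins with 5, 1 cholesterol-diet array against 1 wild-type array, the difference was 0.26. Among those beginning with 6, 2 against 1, it was 0.87. Neither standard-diet animal shares a leading digit with a wild-type animal, so what this digit marks cannot be told apart from the group in that comparison. The stepwise order of both genes, without overlap at either step, was shared by 0.342% of all features and by 2.09% of the 911 named genes with a higher mean on the standard-diet label than on the cholesterol diet.

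Bst2, also called tetherin, holds budding enveloped virus particles on the surface of the infected cell. Its values were 8.62, 8.31 and 8.26 on the cholesterol diet, 10.20 and 8.32 on the standard-diet label, and 8.33 and 7.71 in wild type. A single array, CETP standard-diet replicate 4, stood far above the other 6, and replicate 5 lay inside the wild-type range. On 5 of the 7 arrays Bst2 was at most 1 above the negative control median, and in wild-type replicate 3 it was 0.02 above it. The size of its difference from wild type is therefore uncertain. Rtp4, a receptor chaperone that also binds viral RNA, had a similar profile at 9.73, 9.52 and 9.57 on the cholesterol diet, 10.77 and 9.99 on the standard-diet label, and 9.97 and 9.53 in wild type. Its replicate 5 was barely above the higher wild-type array. The standard-diet difference from wild type was 1.24 ± 0.51 for Bst2 and 0.63 ± 0.29 for Rtp4, and without replicate 4 it was 0.30 and 0.24.

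Ifi44, a microtubule-associated protein gene of the antiviral programme, measured 7.29, 6.82 and 6.43 on the cholesterol diet, 7.98 and 7.25 on the standard-diet label, and 6.87 and 6.31 in wild type. Only replicate 4 was above the negative control median of its array. Ifi44 is thus described near background, with a standard-diet difference from wild type of 1.02 ± 0.35.

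Igtp is one of the immunity-related GTPases, which interferon gamma induces and which attack the vacuoles of intracellular parasites in mice. Its values were 6.91, 7.0 and 6.82 on the cholesterol diet, 8.05 and 8.68 on the standard-diet label, and 6.84 and 6.73 in wild type. The standard-diet arrays were the only 2 above the negative control median. The cholesterol-diet and wild-type arrays overlapped, with a difference of 0.12 ± 0.23, whereas the standard-diet difference from wild type was 1.58 ± 0.25. Since the wild-type level is at background, its size is uncertain.

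Irf7 and Usp18 act on the pathway itself. Irf7 encodes the transcription factor that amplifies type I interferon production, and Usp18 a protease that removes ISG15 from proteins and damps signalling at the interferon receptor. Usp18 measured 8.22, 7.83 and 7.57 on the cholesterol diet, 8.40 and 8.62 on the standard-diet label, and 7.75 and 7.39 in wild type. The standard-diet arrays were above all others, and 1 wild-type array was below its negative control median. With that array included, 4 of the 7 Usp18 values were at most 0.5 above the median. Irf7 measured 5.35, 5.27 and 5.37 on the cholesterol diet, 6.49 and 6.47 on the standard-diet label, and 5.39 and 4.71 in wild type. Both standard-diet arrays were highest, but all 7 were below the negative control median of their array, exceeding at most 31.4% of the negative controls. The standard-diet differences from wild type were 0.94 ± 0.27 for Usp18 and 1.43 ± 0.26 for Irf7.

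Psmb8 encodes an inducible catalytic subunit that converts the proteasome into the immunoproteasome, which trims peptides for antigen presentation. It measured 7.78, 7.73 and 7.14 on the cholesterol diet, 8.64 and 8.15 on the standard-diet label, and 7.33 and 7.28 in wild type. The standard-diet arrays were above the others, and both wild-type arrays and cholesterol-diet replicate 3 were below their negative control medians. The difference from wild type was 0.24 ± 0.26 on the cholesterol diet and 1.09 ± 0.28 on the standard-diet label.

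**Figure D1:**
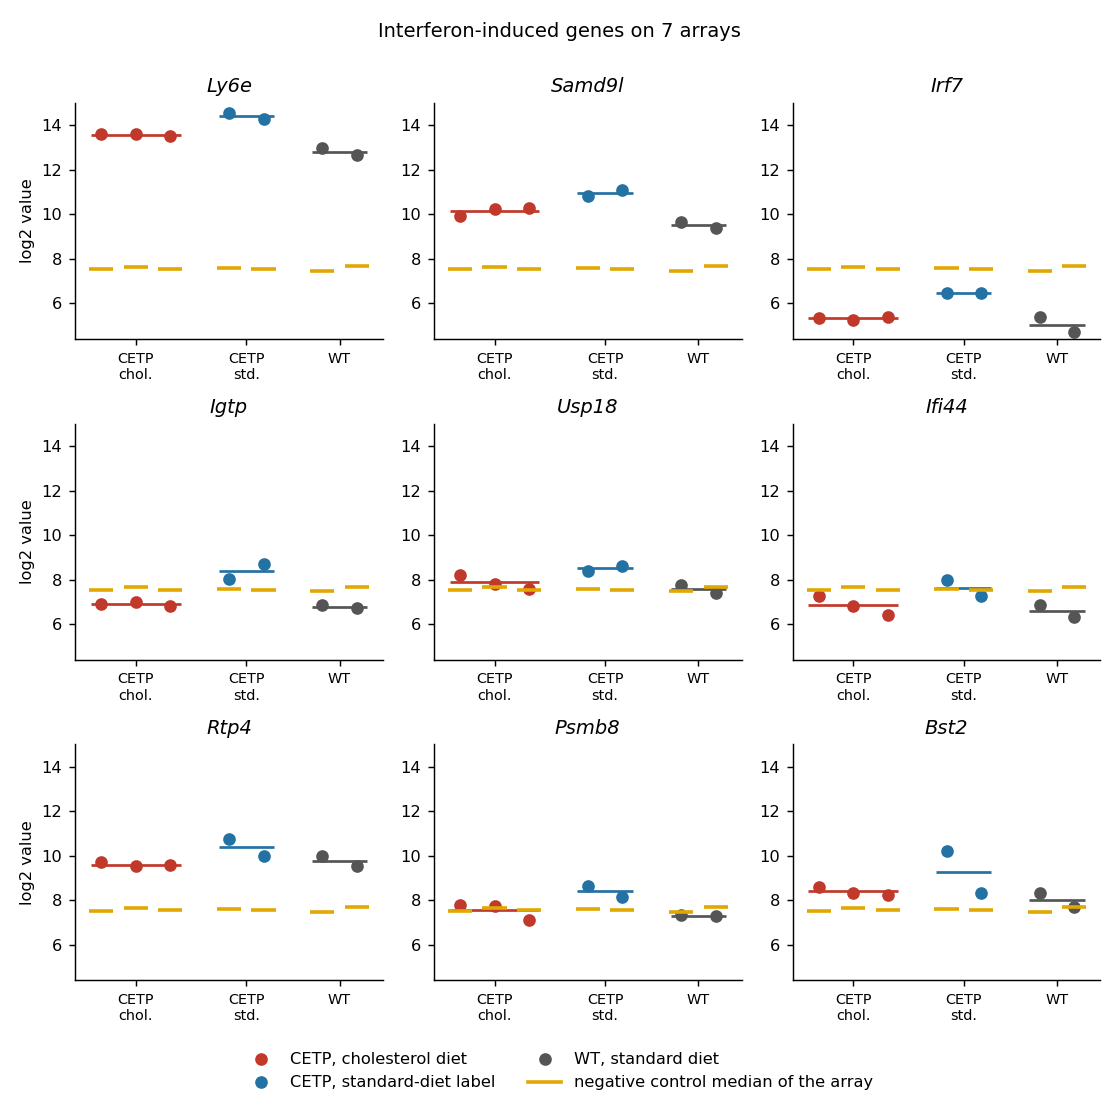
Log2 value (vertical axis, same scale in all panels) of each of the 9 genes on each array, for CETP cholesterol diet (n = 3), CETP standard-diet label (n = 2) and wild type (n = 2). Points are arrays in the order of replicate number, lines are group means and yellow bars the negative control median of the array. The 3 groups separate in steps for Ly6e and Samd9l, and all 7 Irf7 values lie under the yellow bars.

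Across the 9 genes, the comparison of CETP mice on the cholesterol diet with wild type, which the series' design text names, gave small differences. The mean was higher on the cholesterol diet for 8 of the 9, and Rtp4 was lower at -0.14 ± 0.27. Over all features 43.6% had a higher mean. The median of the 9 log2 differences was 0.28, against -0.05 over all features. Of the microglia markers, 12 of the 13 named also had a higher mean on the cholesterol diet, 7 of them without overlap, with a median of 0.75. In cholesterol-diet replicates 1, 2 and 3 their medians over the wild-type mean were 1.13, 0.31 and 0.99. Those of the 9 genes were 0.48, 0.25 and 0.03. The part of microglia in the result was not tested. In 2 genes, Ly6e and Samd9l, all cholesterol-diet arrays were above both wild-type arrays, where 9.97% of all features and 6.15% of the 911 named genes described above had this. By limma 0 of the 9 passed, with adjusted p from 0.505 to 0.897 over all features. Before adjustment, 2 of the 9 had a p under 0.05 by limma, Ly6e and Samd9l, against 3.37% of all features on the higher side. The 911 named genes with a higher mean on the standard-diet label went the other way, with a median of -0.28 and a higher cholesterol-diet mean in 26.2%. The cholesterol-diet arrays entered the authors' selection, which moves named genes in this comparison too. Without wild-type replicate 3 the median of the 9 was 0.07, and without wild-type replicate 2 it was 0.54. Without cholesterol-diet replicate 1 it was 0.13, and without cholesterol-diet replicate 3 it was 0.45.

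The comparison of CETP mice labelled as standard diet with wild type asks about the genotype with the diet label held equal. All 9 genes had a higher mean, against 42.7% of all features and 75.6% of the 911 named genes. In 8 of the 9, all but Bst2, both arrays were above both wild-type arrays, which 12.1% of all features and 31.4% of the named genes also showed. The median of the 9 was 1.24, against -0.05 over all features and 0.28 over the named genes. Differences ran from 0.63 for Rtp4 to 1.60 for Ly6e. Without replicate 4, 8 of 9 were above both wild-type arrays and the median was 1.05, and without replicate 5 these were 9 and 1.34. A single array is more easily above both wild-type arrays than both arrays are, and that share over all features was not counted. Results of this comparison were known when the genes were picked, so the counts describe the choice.

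Within CETP mice, the cholesterol diet was set against the standard-diet label, and the authors chose the table's entries on this comparison. All 9 means were lower on the cholesterol diet, where 49.7% of all features had a higher mean, with log2 differences from -1.46 ± 0.23 for Igtp to -0.64 ± 0.25 for Usp18 and a median of -0.84. In 7 of the 9 all cholesterol-diet arrays were below both standard-diet arrays, against 8.54% of all features and 41.8% of the named genes. Nothing is read from these counts, because the choice of the table fixes them. Bst2 and Ifi44 overlapped, and without replicate 4 the Bst2 difference was 0.07.

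**Figure D2:**
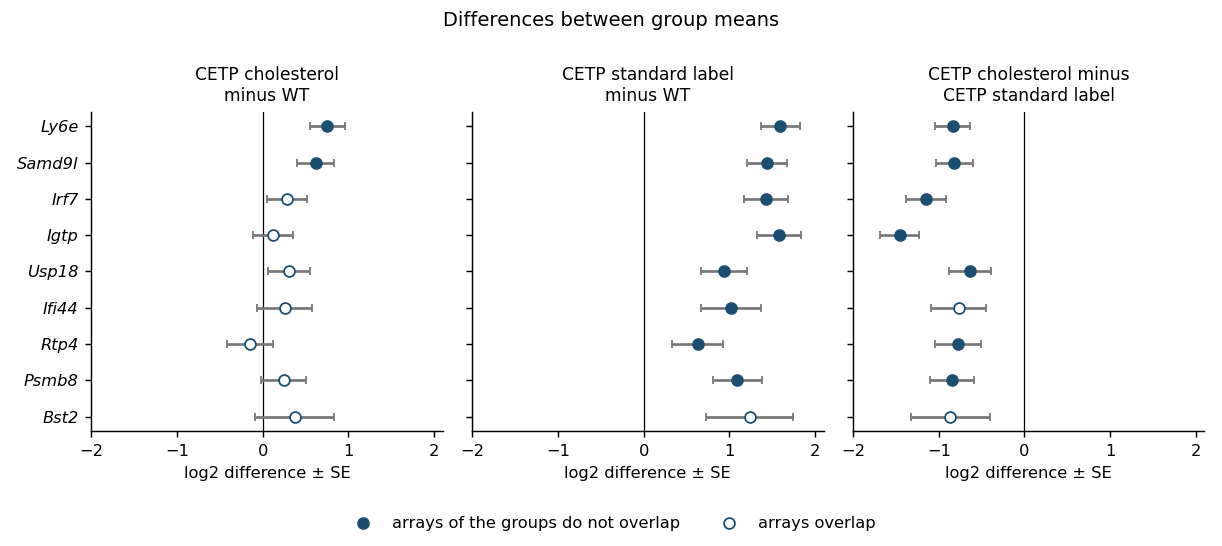
Log2 difference of group means with its limma standard error (horizontal axis) for the 9 genes in 3 comparisons, with filled points where the arrays of the groups do not overlap. Differences from wild type run from -0.14 to 0.76 on the cholesterol diet and from 0.63 to 1.60 on the standard-diet label.

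The 2 CETP standard-diet animals differed from each other in which of the 9 genes were highest. Replicate 4 was above replicate 5 by 1.88 for Bst2, 0.79 for Rtp4, 0.73 for Ifi44, 0.49 for Psmb8 and 0.31 for Ly6e. It was below replicate 5 by a log2 difference of -0.63 for Igtp, -0.25 for Samd9l and -0.22 for Usp18, and Irf7 was nearly equal at 0.02. Markers of microglia, the brain's immune cells, which also express many interferon-induced genes, were read on the same 2 arrays. Of 22 microglia markers 13 were named, and all 13 were higher in replicate 4 than in replicate 5. Their summed level on the log2 scale was 13.06 to 13.86 on the cholesterol diet, 16.00 in replicate 4 and 13.39 in replicate 5 of the standard-diet label, and 12.55 to 13.17 in wild type. Each of the 13 exceeded the negative controls' median on at least 1 array. For several of them this held only in replicate 4, and those were at or below that median on 6 of the 7 arrays, replicate 5 included. The part of the 13 markers in the result was not tested. The microglia sum of replicate 5 was also above both wild-type sums, and 10 of the 13 markers were above both wild-type arrays there, with a median of 0.56 over the wild-type mean. The share of all features above both wild-type arrays in this single array was not counted. The 9 genes had a median of 1.05 over the wild-type mean in that array. Igtp was highest at 1.90, followed by Samd9l at 1.57, Ly6e at 1.44, Irf7 at 1.42 and Usp18 at 1.05. Psmb8 stood at 0.85, Ifi44 at 0.66, Bst2 at 0.30 and Rtp4 at 0.24. In bulk samples a change in the number of cells of a type and in RNA per cell cannot be told apart.

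Endothelial and mural markers were also higher on both standard-diet arrays, 7 of the 8 named of 20 being above both wild-type arrays on each, against 12.1% of all features and 31.4% of the 911 named genes. Their summed level was 13.88 to 14.15 on the cholesterol diet, 14.04 to 14.42 on the standard-diet label and 13.55 to 13.76 in wild type, and their part in the result was not tested. Of 16 astrocyte markers 2 were named, and Slc1a3, the GLAST transporter, measured 13.61, 12.67 and 13.68 on the cholesterol diet, 12.62 and 12.20 on the standard-diet label, and 12.59 and 11.59 in wild type. Sox9, the glial transcription factor, was between 14.43 and 15.31 on all arrays. Both lay far above the negative control medians.

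**Figure D3:**
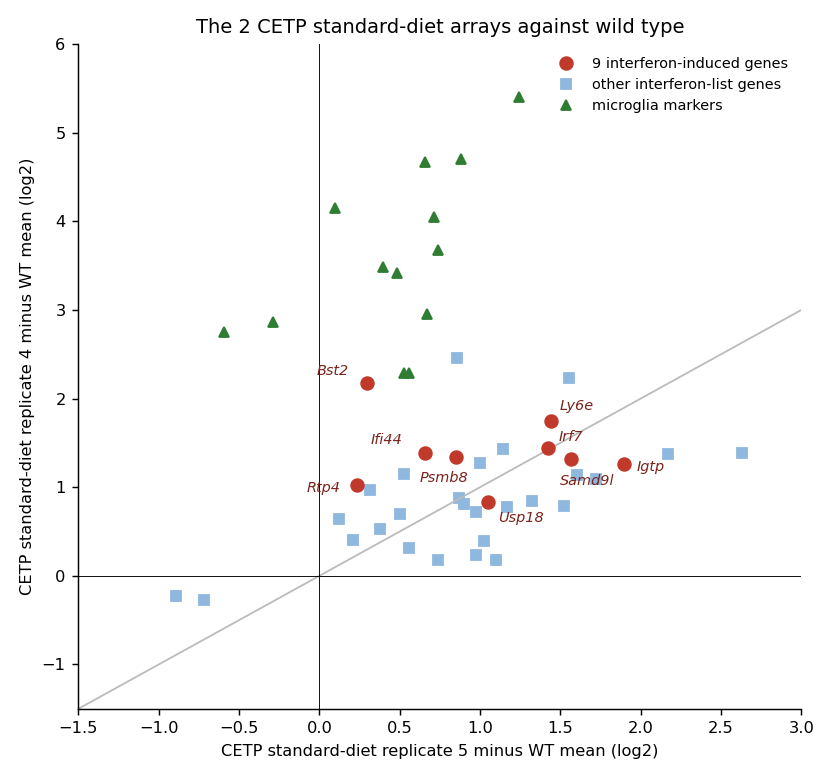
Log2 level minus the wild-type mean in CETP standard-diet replicate 5 (horizontal axis) and replicate 4 (vertical axis) for the 9 genes, the 27 other named interferon-list genes and 13 microglia markers, with the line of equality in grey. Microglia markers lie far above the line, with a median of 3.49 in replicate 4 and 0.56 in replicate 5, whereas the interferon genes lie on both sides of it.

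Other genes were taken from 7 lists drawn up for the interferon pathway, with 189 symbols, of which 27 besides the 9 were named. A listed gene need not be induced by interferon. The lists were chosen with earlier results of these data known, and every named gene had been selected by the authors for its CETP diet difference. On the standard-diet label 25 of the 27 had a higher mean than wild type, and in 23 both arrays were above both wild-type arrays. A higher mean was found in 42.7% of all features and 75.6% of the 911 named genes, and arrays above without overlap in 12.1% and 31.4%. The median log2 difference of the 27 was 0.85. On the cholesterol diet 19 of 27 had a higher mean than wild type, against 43.6% of all features and 26.2% of the 911 named genes, and the median was 0.20. In 10 of the 27 the arrays did not overlap, against 9.97% and 6.15%. By limma 0 of the 27 passed in either comparison. Without replicate 4 as without replicate 5, 24 of the 27 were above both wild-type arrays. This rule is easier to meet with a single array left, and its share over all features was not counted.

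Among ligands 2 of 11 were named, Ifna4, a type I interferon, and Il27, a cytokine. Neither exceeded the negative controls' median on any array, and both had a lower mean on the standard-diet label than in wild type. Of the signalling genes Stat2, a transcription factor of the type I pathway, measured 9.96 and 10.88 on the standard-diet label, against 9.43 and 10.14 in wild type. The groups overlapped, with a difference of 0.64 ± 0.34. The RNA sensor gene Ddx58, encoding RIG-I, differed from wild type by 0.87 ± 0.27 on the cholesterol diet and 1.29 ± 0.30 on the standard-diet label, with no overlap in either. Trim25, a ubiquitin ligase that activates RIG-I, stood at 0.28 ± 0.26 and 0.85 ± 0.28.

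Among effectors 12 of the 13 named, and all 6 named GTPases, had a lower mean on the cholesterol diet than on the standard-diet label, the comparison on which the names were selected. Ifi27, an interferon-induced gene of high signal here, differed from wild type by 0.07 ± 0.39 on the cholesterol diet and 0.84 ± 0.43 on the standard-diet label, and Herc6, the mouse ligase for ISG15, by -0.36 ± 0.25 and 0.44 ± 0.27. Gbp7 and Gbp6 encode guanylate-binding proteins that assemble on pathogen vacuoles. Gbp6 differed by 0.70 ± 0.30 on the cholesterol diet and 1.77 ± 0.33 on the standard-diet label, and Gbp7 by 0.15 ± 0.19 and 0.86 ± 0.21. In 4 of the 5 other named GTPases, and in all 3 other named signalling genes, replicate 5 was above replicate 4, the order seen for Igtp and Usp18. Over all 27 other named interferon genes, 13 were higher in replicate 4. They included 3 of the 4 sensors and adaptors, both ligands and 4 of the 8 other effectors.

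In antigen presentation B2m, the light chain of MHC class I, measured 12.96 and 13.59 on the standard-diet label, against 11.32 and 12.42 in wild type, a difference of 1.41 ± 0.38. Psme2, a subunit of the proteasome activator that interferon gamma induces, differed by 0.38 ± 0.26 and overlapped wild type. For constitutive proteasome subunits, 4 of 21 were named. All 4 had a lower mean than wild type on the cholesterol diet, with a median of -0.67, and 3 of 4 on the standard-diet label, with a median of -0.21. A higher mean was found in 43.6% of all features and 26.2% of the 911 named genes on the cholesterol diet. On the standard-diet label these shares were 42.7% and 75.6%. All 4 were named through the authors' choice on the CETP diets, so nothing is read from the counts. In these same comparisons Psmb8 stood at 0.24 and 1.09. By limma 0 of the 4 passed in either comparison.

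**Figure D4:**
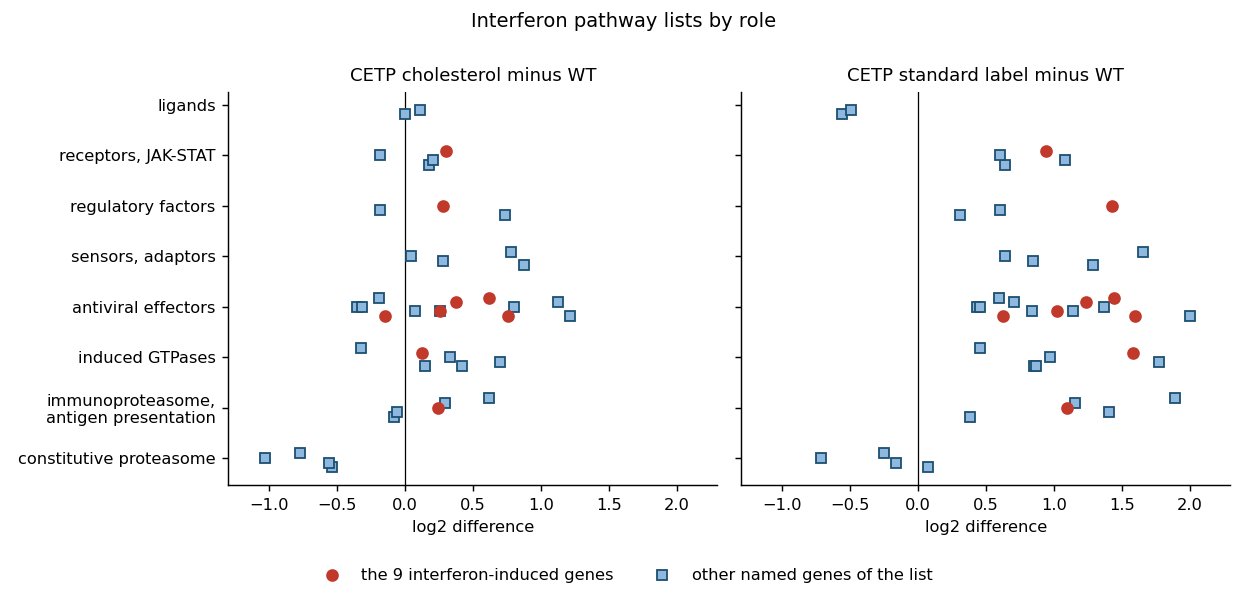
Log2 difference from wild type (horizontal axis) of named genes in 7 interferon lists and the constitutive proteasome list (rows), for the CETP cholesterol diet on the left and the CETP standard-diet label on the right. The 9 genes are red circles and the other named genes blue squares, and 25 of the 27 other interferon-list genes lie right of 0 for the standard-diet label. Genes at background are not marked.

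The 9 genes varied together over the 7 arrays to different degrees. As a description, Pearson's r between pairs of them was lowest for Igtp with Bst2 at 0.47 and highest for Ly6e with Samd9l at 0.94, over arrays that share the 3 groups. Among the 1583 other named genes, the profiles most like the mean of the 9 were those of Igfbp7, a growth factor binding protein of vessels (r = 0.97), Taok2, a kinase (0.95), Gbp7 (0.95), Casp8, a protease of cell death signalling (0.95), and Hcar2, a receptor for nicotinic acid and ketone bodies (0.95). The profiles most like Ly6e were Fxyd5, a regulator of the sodium pump (r = 0.97), an entry that the file names by the human symbol HLA-E (0.96), and Gm4951 (0.92).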

How the data were processed

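The authors deposited a log2 value for each probe set on each array. How background was corrected and arrays normalized was not given in the sources used here. Biotin-labelled cRNA came from 10 ng of total RNA by the Affymetrix Pico procedure, per the labels' protocols. The authors' deposited fold table (other unit: signed linear fold) carries a QIAGEN notice per the file headers, does not say which groups it compares and served only for names. Of its 1778 entries, 98.5% came within 0.0051 of the fold between biweight averages of CETP standard-diet and cholesterol-diet arrays.

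Of 22206 transcript cluster probe sets, 1603 were named through the RefSeq table of GRCm38.p6, by symbol and chromosome, as 1592 genes. Keeping the probe set with the highest mean per gene left 22195 features. For all 9 genes, RefSeq's chromosome was the one in the ID of the probe set.

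The test was limma 3.58.1 (lmFit and eBayes, R 4.3.3) over the 7 arrays together, with a mean for each of the 3 groups and no covariate, and 3 contrasts were tested two-sided with Benjamini-Hochberg adjustment at 0.05 over all features. Degrees of freedom were 4 (residual) and 5.39 (prior). The fit was tested on simulated data with 200 changed features. Promoter matches, counts and figures used Python 3.11.15, pandas 2.3.3, numpy 2.4.6 and matplotlib 3.10.9.

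The 9 genes and all lists were chosen with earlier results of these data known. All 9 genes are given. Of other interferon genes at most 12 were to be named, by list and highest mean, and of similar profiles the 5 nearest the mean of the 9 and the 3 nearest Ly6e. Alternatives were leaving out each array, a block for the replicate number, a block for the leading digit of the animal's number and values within it, only the groups compared, array weights, a filter on dim features, subtraction of array medians, quantile normalization, a trended robust prior and, chosen after seeing the data, a covariate for the spike-in controls and counts without CETP standard-diet replicate 4 or 5. Averaging probe sets could not change a value, since each gene had 1. Scanner files were not used here. One gene of the lists is not reported here by name.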

Additional observations from a re-analysis of the deposited data

How the results depend on the processing

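Irf7 and Ifi44 were removed by the filter for features above the negative control median on at least 2 arrays, and the medians were then of the other 7 genes. The log2 differences of single genes changed sign in 5 of 160 values under alternatives for the cholesterol diet against wild type, in 0 of 124 for the standard-diet label against wild type and in 1 of 124 between the CETP diets. Part of these values could not change. Leaving out an array of the group not compared leaves a difference of means as it was. So do fitting only the groups compared, the filter and the trended robust prior. Array weights did the same for the standard-diet label against wild type. The counts therefore overstate how far the signs were put to the test. Leaving out 1 array at a time, the cholesterol-diet difference from wild type ran from -0.0646 to 0.623 for Irf7 and from -0.0229 to 0.54 for Ifi44, both lowest without wild-type replicate 3, and from -0.365 to 0.0773 for Rtp4, highest without wild-type replicate 2. Within the animals numbered from 5 Irf7 stood at -0.0453, and within those numbered from 6 Rtp4 stood at 0.0169. The Bst2 difference between the cholesterol diet and the standard-diet label ran from -1.81 without CETP standard-diet replicate 5 to 0.0742 without replicate 4. The cause was not tested.

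Leaving out 1 array at a time, the median of the 9 genes ran from 0.0669 to 0.54 for the cholesterol diet against wild type, from 1.05 to 1.55 for the standard-diet label against wild type and from -1.13 to -0.69 within CETP mice, cholesterol diet against standard-diet label. The number of features called over all 22195 was 0 in each of these comparisons and ran from 0 to 0, 0 to 9 and 0 to 14, the last 2 without CETP standard-diet replicate 5, and 0 of the 9 genes were among them. With the replicate number as a block, replicates 2 and 3 of the cholesterol diet and wild type gave 7 called features, 0 of them among the 9, and a median of 0.13. The deviations of same-numbered arrays from their group means correlated at 0.01 and 0.04. With 2 wild-type arrays, the deviation of replicate 3 is that of replicate 2 with its sign reversed. The correlations are therefore not separate checks, and they cannot decide whether the arrays were paired. Values at or below the negative control median numbered 22 of 63, and 37 with a margin of 1.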
